A study of Mus musculus with 2 samples.

Results

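The MAF genes described here are Maf (c-MAF), Maff, Mafg and Mafk, 4 of the 23786 genes that the probes of the array could be named for. They were chosen as a gene family, and their probes were found by matching the transcript accession of each probe to these genes. Each gene had 1 probe, printed as 1 spot. RNA came from bone marrow-derived dendritic cells (BMDCs), antigen-presenting cells grown from femoral marrow of male-labelled C57BL/6J mice with 10 ng/ml GM-CSF and collected on day 6. 1 array held RNA of cells labelled EGR1-deficient, called the KO-labelled array here, and 1 held RNA of cells labelled wild type (WT). The sources used here do not say how the Egr1 allele was disrupted or how many mice gave marrow. With 1 array per label there were no replicates, so no p-value was computed and every difference lacks a replicate check.

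MAF proteins are basic leucine zipper transcription factors that bind DNA as dimers at long palindromic sites called MAF recognition elements. c-MAF is a large MAF with its own activation domain, and it is known in macrophages and T cells for driving Il10 and for holding macrophages in a mature state. MAFF, MAFG and MAFK are small MAFs without an activation domain: they repress as dimers of their own kind and act with cap'n'collar factors such as NRF2 and with BACH repressors at antioxidant and heme genes. EGR1, the factor named in the deficiency, is a zinc-finger protein of the immediate early class that binds GC-rich promoter sites.

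The promoters of the small MAF genes are shown because EGR1 is the labelled deficiency and its sites are GC-rich. The RefSeq promoter table (build GRCm38.p6) held 5 windows for 3 of the 4 genes (3 for Maff and 1 each for Mafg and Mafk), and Maf is named only. In the 250 bases before each annotated start, both strands were searched for an EGR-type site (GCGNGGGCG), an antioxidant-response-type site (TGACNNNGC), an AP-1-type site (TGANTCA) and a cAMP-response element (TGACGTCA). Capitals mark every match in the windows below, and no match overlapped another.
Maff, chr15:79347270-79347519, plus strand: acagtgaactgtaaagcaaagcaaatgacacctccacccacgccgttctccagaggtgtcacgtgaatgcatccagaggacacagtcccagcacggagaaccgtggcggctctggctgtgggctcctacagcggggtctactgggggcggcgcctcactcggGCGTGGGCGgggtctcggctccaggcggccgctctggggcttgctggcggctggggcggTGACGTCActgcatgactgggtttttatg
Mafg, chr11:120633548-120633797, minus strand: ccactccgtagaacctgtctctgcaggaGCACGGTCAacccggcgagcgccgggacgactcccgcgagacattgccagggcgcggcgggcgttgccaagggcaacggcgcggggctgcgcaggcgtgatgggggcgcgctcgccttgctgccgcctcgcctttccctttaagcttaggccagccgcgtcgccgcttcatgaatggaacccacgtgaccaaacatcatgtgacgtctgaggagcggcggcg
Mafk, chr5:139791286-139791535, plus strand: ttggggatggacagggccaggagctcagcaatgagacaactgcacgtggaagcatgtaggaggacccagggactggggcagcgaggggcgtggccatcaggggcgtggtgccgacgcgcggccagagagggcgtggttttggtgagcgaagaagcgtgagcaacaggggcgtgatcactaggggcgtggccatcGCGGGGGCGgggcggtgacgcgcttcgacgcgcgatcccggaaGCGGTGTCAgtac
The window of Maff shown is 1 of its 3, and it held the EGR-type match gcgtgggcg, 88 to 80 bases before that start, and a cAMP-response element 29 to 22 bases before it. The Mafk window held the EGR-type match gcgggggcg, 56 to 48 bases before the start, and an antioxidant-response-type match on the minus strand 13 to 5 bases before it. The Mafg window held no EGR-type match and 1 antioxidant-response-type match on the minus strand, 222 to 214 bases before the start. Of the other Maff windows, 1 held an antioxidant-response-type match 112 to 104 bases before its start and 1 held no match. No window of the 3 genes held an AP-1-type match. Over all 32851 windows of this length in the table, 4.7% held an EGR-type match, 10.2% an antioxidant-response-type match, 6.75% an AP-1-type match and 1.55% a cAMP-response element. These shares are per window and not matched for GC content, which was 64.0%, 68.0% and 67.2% in the Maff, Mafg and Mafk windows shown. A match describes letters in a window and does not show that a factor binds there.

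The values are processed signals, the scanner program's background-subtracted spot intensities on a linear scale, each given with that program's own error estimate for the spot. A log2 value is the log2 signal minus the array's 75th percentile, and a difference is the log2 value on the KO-labelled array minus that on the WT array. Each spot could be called well above background by the scanner program, and all 4 MAF spots were so called on both arrays, with none saturated or marked as an outlier. Signals of different probes are not set against each other, since probes differ in how well they capture RNA.

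The labels were checked on the same arrays. Egr1 read 1212 on the KO-labelled array and 379.7 on the WT array, 3.05-fold higher, which does not bear out the label. It was measured by 1 probe whose place relative to any deleted part is not stated, and a probe outside a deleted part checks nothing. Every direction given here therefore rests on the labels as given. Xist read 4559 on the KO-labelled array and 3425 on the WT array, although both are labelled male, and of the Y-linked genes Ddx3y, Kdm5d and Uty were above background on neither. Another Y-linked gene, Eif2s3y, had 1 of its 2 probes above background on both arrays, at 27.1 on the KO-labelled array and 25.6 on the WT array.

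Maff was the member whose readings lay furthest apart, Maf was slightly lower on the KO-labelled array, and Mafg and Mafk lay close to equal. None of the 4 reached 2-fold. Among the 13725 genes well above background on both arrays, 1.71% were 2-fold or more apart in either direction, and 0 of 4 is close to that share: 0.707% were 2-fold or more higher on the KO-labelled array and 1.01% were lower. Of the members, 2 lay above 0 and 2 below, beside 42.6% of all genes above 0 and 57.4% below. Their median difference was −0.06, beside −0.05 over all 13725 genes.

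**Figure D1:**
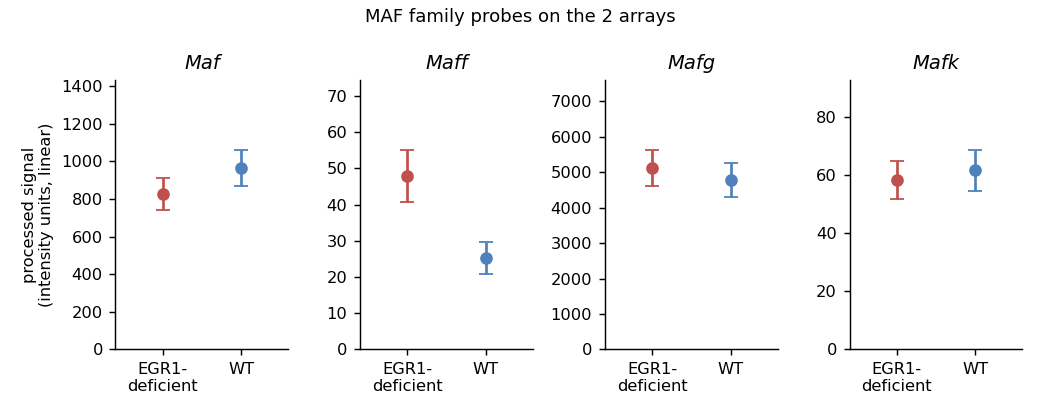
Processed signal (intensity units, linear, axis from 0) of the probes for Maf, Maff, Mafg and Mafk on the KO-labelled array and on the WT array; each point is 1 spot and each bar the scanner program's error for it. The bars overlap for Maf, Mafg and Mafk and do not overlap for Maff, which read 48.0 on the KO-labelled array and 25.2 on the WT array.

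Maf, the large MAF (chromosome 8), had a signal of 827 ± 82.8 (scanner error) on the KO-labelled array and 966 ± 96.7 on the WT array. The error bars overlap. The difference was −0.29 log2 units with a scanner error of 0.20, or 1.22-fold lower on the KO-labelled array. Of the 13725 genes, 31.7% lay at least as far from 0. Relative to the median of all genes the difference was −0.24, and it stayed below 0 under all 10 alternatives run, between −0.29 and −0.18.

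Mafg, a small MAF that pairs with NRF2 and BACH1 (chromosome 11), read 5125 ± 513 on the KO-labelled array and 4784 ± 478 on the WT array. The difference was 0.03 with a scanner error of 0.20, the smallest of the 4. Of all genes, 91.0% lay at least as far from 0. Under the alternatives it ranged up to 0.18, after quantile normalization.

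Mafk, the small MAF first known as the partner of NF-E2 p45 in erythroid cells (chromosome 5), read 58.2 ± 6.53 on the KO-labelled array and 61.5 ± 7.10 on the WT array. The difference was −0.15 with a scanner error of 0.23, smaller than its error. Of all genes, 61.3% lay at least as far from 0. It stayed below 0 under all 10 alternatives, between −0.21 and −0.03.

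Maff, a small MAF whose gene is induced by stress and inflammatory signals (chromosome 15), read 48.0 ± 7.22 on the KO-labelled array and 25.2 ± 4.36 on the WT array. The difference was 0.86 log2 units, or 1.82-fold higher on the KO-labelled array, with a scanner error of 0.33. The difference exceeded that error 2.60 times. Only 160 of the 13725 genes had a higher difference, and 2.63% lay at least as far from 0. Both readings were dim: the lowest signal called well above background was 13.3 on the KO-labelled array and 16.3 on the WT array. Among probes printed many times, the 6 with signals between 20 and 100 had a median SD of the difference of 0.22, and the highest was 0.45, against 0.07 over all 282 such probes above background.

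**Figure D2:**
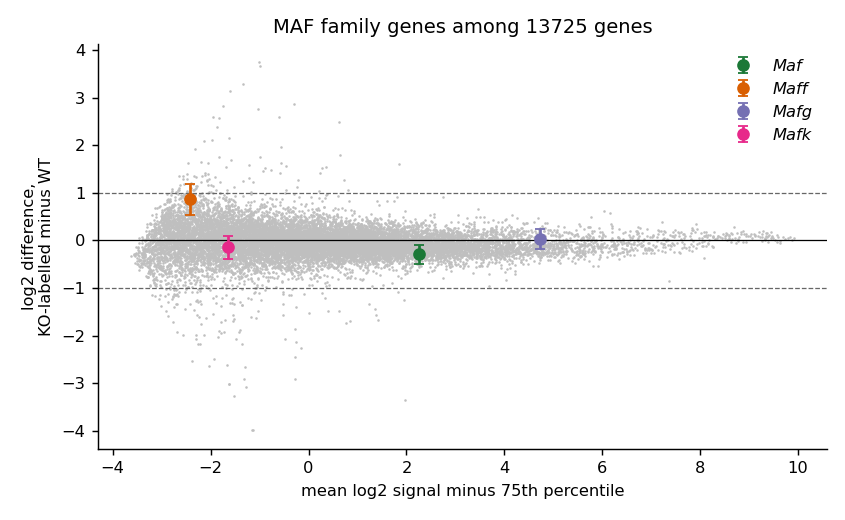
Difference (log2, KO-labelled minus WT) against mean log2 signal minus the 75th percentile for each of 13725 genes (grey) and the 4 MAF genes (coloured, bars are the scanner error of the difference); dashed lines mark 2-fold. Maff lies at 0.86 among the dim genes, where the grey points spread widest, and Maf, Mafg and Mafk lie between −0.29 and 0.03.

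The Maff difference was not present in the typical pixel of its spot. The processed signal rests on a background-subtracted signal, which for Maff was 49.3 on the KO-labelled array and 25.7 on the WT array. The median pixel of the same spot was 83.0 on the KO-labelled array and 80.5 on the WT array, with a local background of 32.0 and 31.0. The median pixel above local background was therefore 51.0 on the KO-labelled array and 49.5 on the WT array. With that signal in place of the processed one, an alternative chosen after seeing the data, the Maff difference was −0.015. It was −0.0097 after normexp background correction, which started from the same median pixels and added an offset of 50 to every signal. That offset draws differences of dim spots toward 0. Local backgrounds of 32.0 (KO-labelled) and 31.0 (WT) were below the typical 54.7 and 53.2 taken off dim spots. Subtracting them can therefore narrow dim differences too. For Maf, Mafg and Mafk the median pixel signal gave −0.27, 0.05 and −0.17, close to their processed values.

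How far a spot's median pixel exceeds its background-subtracted signal was much the same for most dim spots. Over 13420 spots with signals between 20 and 100 on the KO-labelled array, the median excess was 54.7, and the lowest and highest percent of spots lay below 43.5 and above 61.3. Maff had an excess of 33.7 there, and only 19 of those spots (0.14%) were at or below it. On the WT array Maff had an excess of 54.8, beside a median of 53.2 over 12721 such spots. The Maff spot on the KO-labelled array was thus far from other dim spots, and on the WT array it was not. The scanner program raised no non-uniformity mark on either spot.

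**Figure D3:**
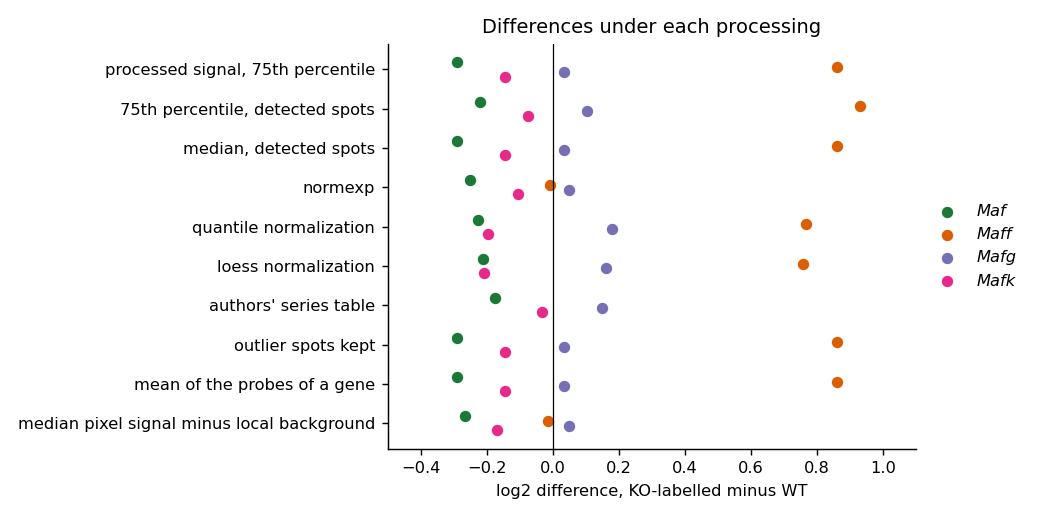
Difference (log2, KO-labelled minus WT) of Maf, Maff, Mafg and Mafk under each way of processing, listed down the page. Maff lies between 0.76 and 0.93 where processed signals were used and at −0.0097 and −0.015 in the rows that start from median pixels, and it is not listed in the authors' series table.

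Place on the array also went with the size of differences. The Maff spot lay in row 2 of 384, whereas Maf lay in row 196, Mafk in row 284 and Mafg in row 325. In the first 48 rows, 6.15% of the 4066 spots above background on both arrays were 2-fold or more apart, and in the other 7 blocks of 48 rows this share was between 0.62% and 2.21%. A difference as large as that of Maff, in either direction, was found in 7.67% of spots in the first 48 rows, and in 1.39% to 3.26% in the other blocks. Within the first 10 rows, which hold the Maff spot, this share was 12.7% of 871 spots, against 2.38% over all other rows. The SD of the difference was 0.57 in the first block and between 0.31 and 0.39 in the others. The part of array position in the Maff reading was not tested.

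**Figure D4:**
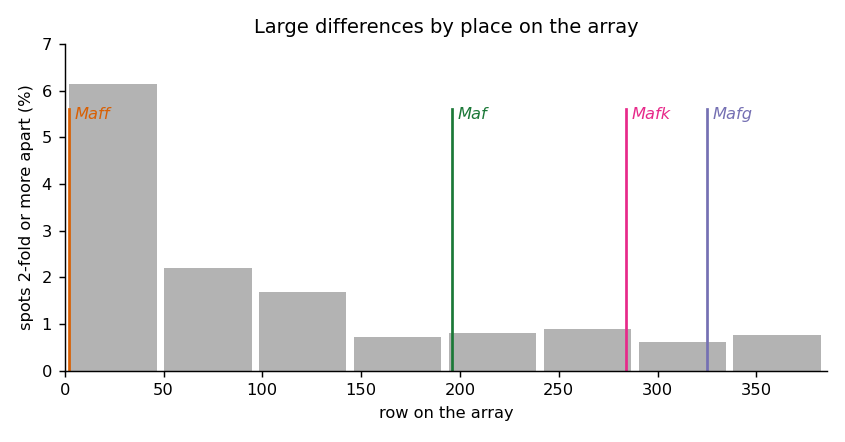
Percent of spots 2-fold or more apart between the KO-labelled array and the WT array, by blocks of 48 array rows, over spots well above background on both; coloured lines mark the rows of the 4 MAF spots. The first block stands at 6.15% and holds Maff, and the blocks of Maf, Mafk and Mafg stand at 0.81%, 0.89% and 0.62%.

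Other large MAF genes were read as well. Mafa, best known as an insulin gene activator of pancreatic beta cells, read 11294 on the KO-labelled array and 9642 on the WT array (0.16). That probe was bright on both arrays, and its place in the transcript is not stated in the files. Nrl, the rod photoreceptor factor, was well above background on neither array.

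Of 7 cap'n'collar, BACH and KEAP1 genes, the dimer partners of the small MAFs and their regulator, 6 were above background on both arrays, and none of these was 2-fold apart, beside 1.71% of all genes. They were 3 below 0 and 3 above, with a median of −0.05, the same as that of all genes. Bach1, the heme-sensing repressor, read 262 on the KO-labelled array and 205 on the WT array (0.29). Nfe2l2, which encodes NRF2, read 1369 on the KO-labelled array and 1509 on the WT array (−0.21). Its other probe, in the first 48 rows, differed by 0.32. Nfe2l1, which encodes the proteasome regulator NRF1, gave −0.25 in its brighter probe and 0.21 in its other. Keap1, the adaptor that marks NRF2 for degradation, gave −0.14. Bach2, a repressor prominent in lymphocytes, passed background on the KO-labelled array alone, at least 1.20-fold above the WT array. The median of this list was above 0 under 3 of 11 settings, namely the percentile over detected spots, the authors' series table and the mean of a gene's probes.

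Antioxidant and heme genes at which small MAFs bind with NRF2 or BACH1 were close to equal. All 25 were above background on both arrays, and 19 were below 0, beside 57.4% of all genes. None was 2-fold apart, which is close to the 1.71% of all genes that were. Their median difference was −0.12, and it lay within 0.08 log2 units of the all-gene median under every setting run. Hmox1, the heme-degrading enzyme that BACH1 represses, read 11503 on the KO-labelled array and 12105 on the WT array (−0.14). Nqo1, a quinone reductase and standard NRF2 target, read 2158 on the KO-labelled array and 1881 on the WT array (0.13). The members furthest from 0 were the glutathione transferase gene Gsta3 (−0.36, other probe −0.15), the catalase gene Cat (−0.27), the pentose phosphate gene G6pdx (−0.25) and the thioredoxin gene Txn1 (−0.25).

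AP-1 genes, some of whose products can pair with MAF proteins, held 1 member 2-fold apart. Of 11 genes, 10 were above background on both arrays, with 6 below 0 and a median of −0.17, which lay between −0.17 and −0.05 under all 11 settings. Batf2, an interferon-induced factor, read 97.8 on the KO-labelled array and 206 on the WT array, 2.21-fold lower (−1.14), where 1.01% of all genes were 2-fold or more lower. The stress-induced repressor Atf3 (−0.58), the dendritic and T cell factor Batf (−0.52) and Fosl2 (−0.38, other probe 0.16) came next. The Atf3 spot lay in the first 48 rows. Fosl1 passed background on the KO-labelled array alone, at least 1.40-fold above the WT array.

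Genes tied to large MAF factors in macrophages lay mostly below 0. The list holds both genes that c-MAF activates and genes that it represses, and a link to the Maf reading was not tested. Of 20 genes, 16 were above background on both arrays, 14 of them below 0 beside 57.4% of all genes, with a median of −0.29 beside −0.05 over all genes. None was 2-fold apart, which is close to the 1.71% of all genes that were. The complement genes C1qc, at 2838 on the KO-labelled array and 4222 on the WT array (−0.64), and C1qb (−0.58) were furthest from 0, followed by the M-CSF receptor gene Csf1r (−0.39, other probe −0.05) and the scavenger receptor gene Stab1 (−0.37). Il10, the cytokine gene that c-MAF activates, was above background only on the KO-labelled array, at 22.2 against 9.91 on the WT array, at least 1.30-fold higher. Il12b, a cytokine gene that c-MAF represses in macrophages, read 313 on the KO-labelled array and 246 on the WT array (0.28). The Il12b spot lay in the first 48 rows. Il12a, also on this list, read 67.0 on the KO-labelled array and 64.8 on the WT array (−0.02). Timd4, a receptor of resident macrophages, passed background on the WT array alone and was at least 1.66-fold lower on the KO-labelled array, and Folr2 and Cd163 were above background on neither. The median of this list stayed below 0 under all 11 settings, between −0.35 and −0.19.

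Markers of macrophages themselves also lay mostly below 0. Of 8 such markers, 7 were above background on both arrays and 6 of these were below 0 beside 57.4% of all genes. Their median was −0.34, beside −0.05 over all genes, and it lay between −0.34 and −0.19 under all 11 settings. Cd14 was the marker above 0, at 0.18, and its other probe, in the first 48 rows, gave 0.28. Cd163 was above background on neither array. This list shares Csf1r, Adgre1, Mrc1 and Cd163 with the list above, so the lists are not independent. In RNA of a whole culture, fewer macrophage-like cells and less RNA of these genes per cell cannot be told apart. The part of cell makeup in the Maf reading was not tested.

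**Figure D5:**
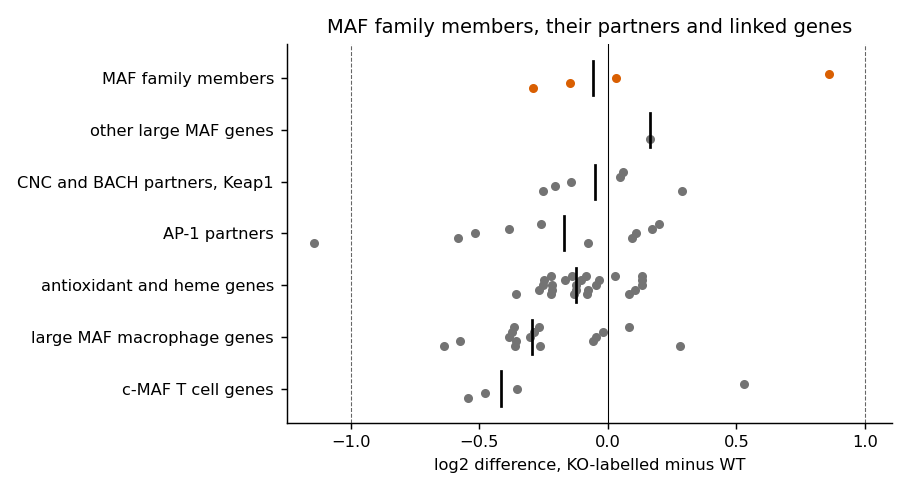
Difference (log2, KO-labelled minus WT) of the 4 MAF family members (orange) and of the genes in each linked list (grey) above background on both arrays; black bars are medians and dashed lines mark 2-fold. The macrophage genes centre at −0.29 and the antioxidant genes at −0.12, and Batf2 at −1.14 is the gene beyond 2-fold.

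Genes tied to c-MAF in T cells were mostly not above background. Of 9 genes, 5 were above background on neither array, among them Il4 and Il17a. The 4 above background on both were Icos (−0.54), Il21 (0.53), Il9r (−0.48) and Il22 (−0.35), with signals from 20.9 to 124 over both arrays. The Il9r spot lay in the first 48 rows.

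Dendritic cell markers were all 10 above background on both arrays, with a median of −0.05. Neutrophil markers (8 of 8 above background on both, median −0.0039), mast cell and basophil markers (5 of 6, −0.41), erythroid and megakaryocyte markers (9 of 12, −0.04), T and NK cell markers (5 of 9, 0.37), B cell markers (5 of 6, −0.58) and stromal markers (3 of 7, 0.99) were read as well. Among the B cell markers Ebf1 (−1.15) and Cd79b (−1.09), both in the first 48 rows, were 2-fold or more lower on the KO-labelled array, beside 1.01% of all genes. Ms4a1 (0.45) and Pax5 (0.47) were higher on the KO-labelled array. The B cell median was 0.45 without the first 48 rows, 0.05 with the series table, −0.15 after normexp and −0.32 with median pixel signal. The T and NK cell markers also went both ways: Cd3g was at least 2.29-fold higher on the KO-labelled array, Cd3d was at least 1.73-fold lower there, and Klrb1c, in the first 48 rows, gave −0.65. Their median was 0.10 after normexp and 0.19 with median pixel signal. Of the stromal markers Col1a2 (1.05) was 2-fold or more higher on the KO-labelled array, beside 0.707% of all genes. The stromal median was 0.34 after normexp and 0.65 with median pixel signal. The medians of the dendritic, neutrophil, and erythroid and megakaryocyte lists were above 0 under 4, 5 and 1 of 11 settings.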

How the data were processed

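Spot intensities of 2 one-colour arrays were used as the authors deposited them in scanner output, made with Agilent Feature Extraction 12.1.0.3 per the file headers (11.5.1.1 per the submitters' processing notes), with background subtraction and detrending. Both arrays shared a slide and a scan. The scanner program's flags, deposited as other values of 0 or 1, served as filters. The authors' deposited table of intensities equals the processed signal times 1 constant per array, 6.18 for KO-labelled and 5.97 for WT, uncentred, with column medians of 1205 and 1114. The origin of the constants is not stated.

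Each array's log2 processed signals were set relative to its 75th percentile (59305 non-control spots), 77 and 79 outlier spots were dropped, and repeated spots averaged. Of the spots, 59.8% were well above background on the KO-labelled array, against 55.2% for WT. Of 56603 probes, 34565 were named through RefSeq (GRCm38.p6, for names, chromosomes and promoters only, since the array files name mm9), and the brightest probe stood for a gene. An at-least fold takes, on the dim array, its lowest well-above-background value or the dim reading, whichever is higher. Some spots above that lowest value still failed the background call. An at-least fold is therefore not a strict lower bound, and it carries no spot error. Python 3.11.15 and limma 3.58.1 (normexp with an offset of 50, quantile, loess) were used, and the calling step was tested on simulated data. Precision is limited by the number of arrays, 1 per group.

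The members and the 14 gene lists were chosen with earlier results of these data known. Named were every MAF probe and, from each linked list, members 2-fold or more apart and up to 4 furthest from 0. Marker lists are given by counts and members 2-fold or more apart. Hmox1, Nqo1, Il10, Il12b, Il12a, Timd4, Fosl1, Bach2, Cd14, Cd3d, Klrb1c, Ms4a1, Pax5, genes above background on neither array, the row blocks, the first 10 rows and the pixel comparison were chosen after values were seen. Some list genes are not reported here and were kept out of the counts.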

Additional observations from a re-analysis of the deposited data

How the results depend on the processing

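Maf, Mafg and Mafk kept their sign and moved by less than 0.17 log2 units (the typical SD among a gene's probes) under all 10 alternatives run for each. The Maff difference of 0.86 moved to −0.0097 after normexp with median pixels (the files used here hold no mean pixel column) and to −0.015 with median pixel signal minus local background, an alternative chosen after seeing the data. It is not listed in the series table and has no value without the first 48 rows. The counts of genes 2-fold or more higher and lower were 97 and 138 of 13725 genes. Of the same 13725 they became 18 and 32 after normexp, and 37 and 73 with median pixel signal minus local background. Without a filter on dim probes they were 1280 and 971 of 23786 genes, and with a stricter filter 9 and 14 of 6986. Without the first 48 rows, also chosen after seeing the data, they were 56 and 75 of 11870. With the series table they were 102 and 67 of 12744. After quantile normalization they were 77 and 174, and after loess 75 and 176. With the percentile over detected spots they were 124 and 122, close to an even split. Normexp added an offset of 50 to every signal, which draws differences of dim spots toward 0. This setting enters every normexp value given here. Filters change which genes enter. The cause of these shifts was otherwise not tested. The median of all genes ranged from −0.05 to 0.06 over the scalings, and it was −0.11 without a filter on dim probes and −0.08 with the stricter one. No paired analysis was possible because there was 1 array per group. Maff and Mafk were dim on both arrays, with signals under 100.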
